A study of Rattus norvegicus with 17 samples.

Results

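Adipoq, Plin1, Cidec, Fabp4, Cfd, Thrsp, Cdo1, Fasn, Acly and Pck1 are 10 genes of fat cells and of fat synthesis, followed here in the gastrocnemius, a hindlimb muscle, of rats. They were taken by name from a table of read counts with 32495 named entries, and each name stood on a single entry. All 10 passed the filter on low counts that left 11856 entries for testing. The list was selected on group differences in the counts of these same samples, which were already known, so the levels and fold changes of the 10 genes between groups are given as a description and no test is drawn on them. How many of them pass the threshold of the whole-table fit is counted only beside the share of all genes that do.

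The study sequenced total muscle RNA, depleted of ribosomal RNA, of 3 groups of rats: healthy, with a tumor but no chemotherapy, and with both a tumor and chemotherapy. All were on a control diet. The labels name neither the tumor, the drug, the strain, the sex nor the age, and they do not say how much fat surrounded the muscle when it was taken. There were 5 healthy samples (libraries 1 to 5), 5 tumor samples (libraries 6 to 10) and 6 chemotherapy samples (libraries 11 and 13 to 17), after libraries 11 and 12, the closest pair in their counts, were added up and called library 11.

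Fat cells store triglyceride in a large droplet. Perilipin 1 and CIDEC coat and enlarge that droplet, FABP4 carries fatty acids to and from it, and the cells secrete the hormone adiponectin (Adipoq) and the protease adipsin (Cfd). Fatty acids are built in the cytosol: ATP citrate lyase (Acly) supplies acetyl-CoA, fatty acid synthase (Fasn) joins the units, and THRSP, a nuclear protein induced by thyroid hormone and carbohydrate, accompanies high rates of synthesis. PCK1 makes the glycerol backbone of triglyceride in fat cells that lack glucose, as well as new glucose in liver and kidney. CDO1 oxidises cysteine on the way to taurine and is abundant in fat and liver. Muscle fibers make little of the fat cell products, but fat cells lie between muscle bundles.

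Several of these genes varied together from sample to sample, as shown further on, so the stretches before their starts are given for the 4 members that stand for the main roles: the hormone Adipoq, the droplet protein Plin1, the synthesis factor Thrsp and the enzyme Pck1. RefSeq's promoter table on the rat build GRCr8 held 7 of the 10 genes. Each line is the 250 bases before the start of the gene, 5′ to 3′ along the gene's strand, and capitals mark the motifs found on either strand.
Adipoq, chr11:91240170-91240419, minus strand: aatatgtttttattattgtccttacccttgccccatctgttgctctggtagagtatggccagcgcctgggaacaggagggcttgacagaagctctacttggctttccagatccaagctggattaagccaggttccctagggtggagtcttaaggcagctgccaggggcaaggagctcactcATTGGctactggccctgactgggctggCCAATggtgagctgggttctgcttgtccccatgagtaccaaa
Plin1, chr1:143086149-143086398, minus strand: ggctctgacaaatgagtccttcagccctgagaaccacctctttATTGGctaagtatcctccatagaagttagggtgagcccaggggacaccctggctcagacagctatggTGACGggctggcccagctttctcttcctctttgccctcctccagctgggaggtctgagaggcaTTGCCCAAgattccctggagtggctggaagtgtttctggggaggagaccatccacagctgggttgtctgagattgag
Thrsp, chr1:161138965-161139214, minus strand: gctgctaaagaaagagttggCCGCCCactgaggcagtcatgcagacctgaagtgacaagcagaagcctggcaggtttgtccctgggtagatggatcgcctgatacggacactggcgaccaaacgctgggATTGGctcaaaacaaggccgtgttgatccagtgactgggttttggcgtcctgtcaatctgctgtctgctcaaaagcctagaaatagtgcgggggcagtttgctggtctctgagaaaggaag
Pck1, chr3:182348322-182348571, plus strand: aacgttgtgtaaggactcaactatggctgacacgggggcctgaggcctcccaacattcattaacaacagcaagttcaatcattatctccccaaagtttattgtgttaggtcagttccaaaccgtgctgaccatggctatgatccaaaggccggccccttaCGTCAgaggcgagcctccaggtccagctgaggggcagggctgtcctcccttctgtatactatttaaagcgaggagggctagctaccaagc

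The motifs were searched as fixed letters on both strands. The CCAAT box (CCAAT) was found in 4 of the 7 promoters, those of Adipoq, Plin1, Thrsp and Acly, and in 34.0% of the 33465 promoters of the table. The core letters bound by C/EBP factors (TTGCNNAA) were in the Plin1 and Cidec promoters and in 9.22% of all. The half-site of the cyclic AMP response element (TGACG) was in Plin1, Pck1, Cfd and Acly and in 18.2% of all. The GC box (GGGCGG) was in Thrsp, Cfd and Acly and in 30.5% of all. None of the 7 windows held the letters of the TATA box (TATAAA, 12.9% of all), the E-box (CACGTG, 5.59%), the sterol response element (TCACNCCAC, 0.974%), the full cyclic AMP response element (TGACGTCA, 1.59%, which contains the half-site) or the PPAR direct repeat (0.0508%). These matches describe letters within 250 bases and not bound sites.

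Counts assigned to named entries ran from 3020821 to 15719080 per deposited library, and 1 count was worth between 0.0488 and 0.312 CPM (counts per 1000000, scaled for library composition). The muscle genes Acta1 and Ckm were abundant in every sample, at no less than 26140 and 17032 CPM. Of 11 fat cell markers, 8 had counts in all 16 samples, while Cidec had them in 15, Retn in 14 and Lep, the hormone leptin, in 13. Tumor library 8 and chemotherapy library 17 stood apart in the genes described here, and tumor library 8 also held skin keratins, so the group differences that rest on them are also given without them. The alignment names carry a suffix of unknown meaning, MB on healthy libraries 1 to 4 and chemotherapy library 11 and VM on all others, so suffix and group largely cannot be told apart.

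Adiponectin, the hormone of fat cells, was low in most samples and high in a few. Healthy libraries 1 to 5 held Adipoq at 2.08, 16.2, 8.22, 4.73 and 3.56 CPM, and tumor libraries 6 to 10 at 35.0, 4.77, 53.7, 8.42 and 14.2 CPM. Across the chemotherapy samples it ran from 9.15 through a median of 10.9 to 116 CPM. Tumor libraries 6 and 8 and chemotherapy libraries 11 and 17 lay above every healthy sample, and the other 7 tumor-bearing samples lay within the healthy range. Healthy muscle averaged 6.96 ± 5.64 CPM (SD, n = 5), tumor muscle 23.2 ± 20.6 (n = 5) and chemotherapy muscle 30.3 ± 42.4 (n = 6). The log2 fold change from the fit was 1.82 ± 0.80 (SE) for tumor minus healthy and 2.21 ± 0.79 for chemotherapy minus healthy. Without tumor library 8 the first was 1.22, and without chemotherapy library 17 the second was 1.04. Since this is RNA of whole muscle, fewer or more fat cells and less or more message per fat cell cannot be told apart.

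Adipsin, the complement protease of fat cells, followed the same samples at a smaller range. Cfd measured 17.9, 43.4, 57.0, 27.6 and 22.2 CPM in healthy libraries 1 to 5 and 50.7, 14.96, 80.1, 25.7 and 43.2 CPM in tumor libraries 6 to 10. In chemotherapy muscle the lowest sample had 20.9, the median was 31.0 and library 17 had 181 CPM. The groups overlapped widely, and only tumor library 8 and chemotherapy libraries 11 and 17 exceeded the highest healthy sample. The difference was 0.86 ± 0.53 on the log2 scale for chemotherapy minus healthy and 0.14 without tumor library 8 and chemotherapy library 17. The Cfd difference of tumor minus healthy was 0.35 ± 0.55, and -0.01 without these libraries. Within each sample the ratio of Cfd to Adipoq lay between 5.83 and 8.64 in healthy libraries 1, 3, 4 and 5 and at 2.68 in healthy library 2. In the 11 tumor-bearing samples that ratio ran from 1.45 to 3.14.

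**Figure D1:**
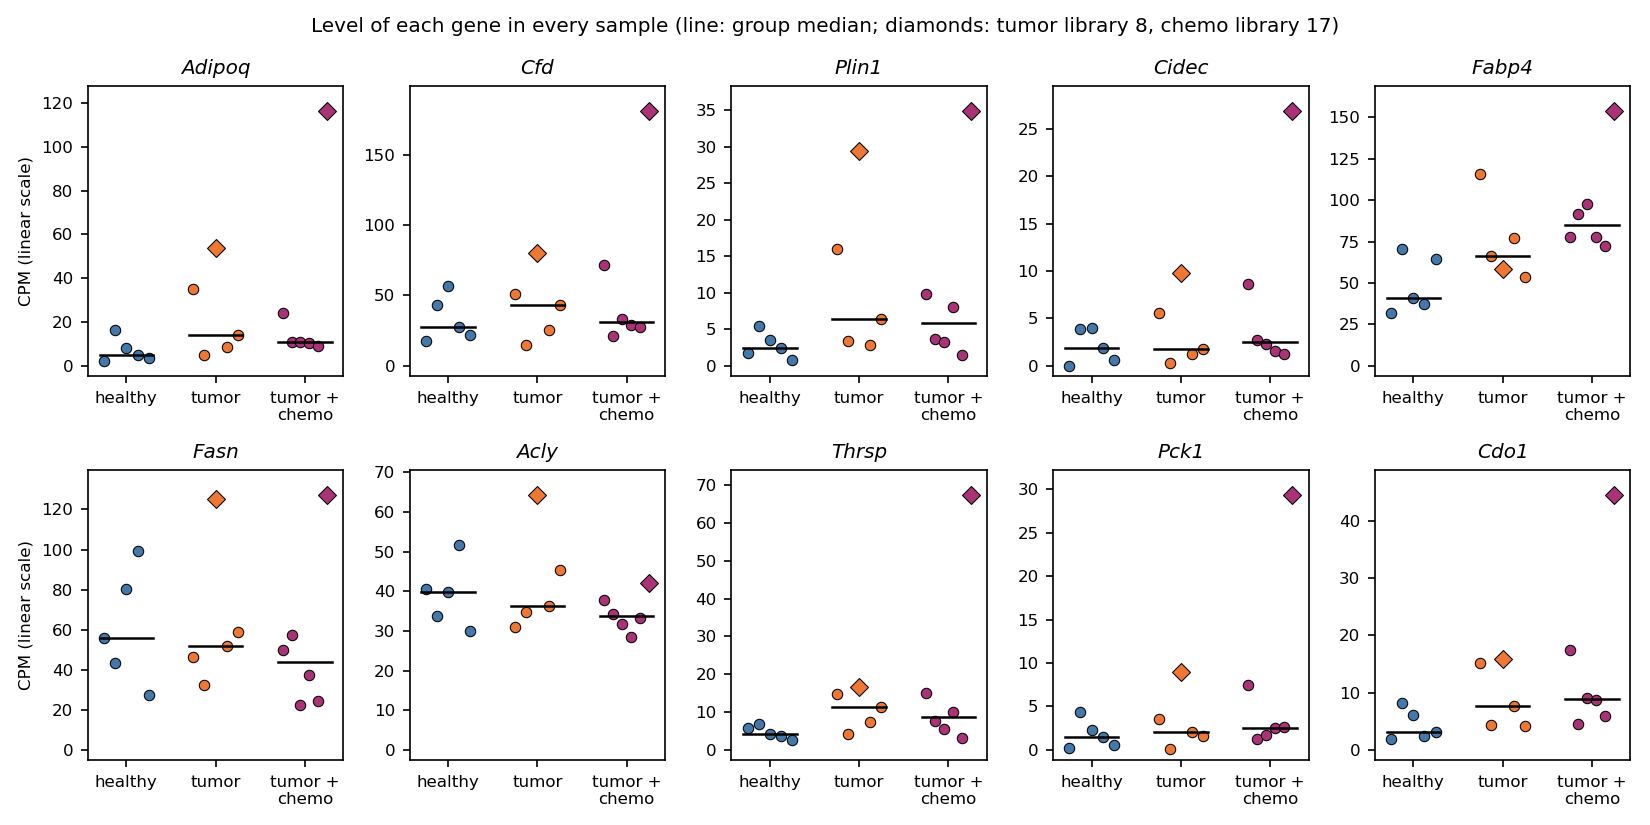
Level of each of the 10 genes in CPM (vertical axis, linear and separate for each gene) in the 5 healthy, 5 tumor and 6 chemotherapy samples; each point is a sample, the line is the group median, and diamonds mark tumor library 8 and chemotherapy library 17. Chemotherapy library 17 is the highest point in every panel but Acly, where tumor library 8 is highest, and only for Fabp4 do all chemotherapy samples lie above all healthy samples.

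Of the droplet proteins, perilipin 1 had the larger difference between tumor and healthy muscle. Plin1 was at 1.70, 5.49, 3.54, 2.43 and 0.737 CPM in healthy libraries 1 to 5 and at 15.9, 3.34, 29.4, 2.86 and 6.40 CPM in tumor libraries 6 to 10. The chemotherapy samples ranged from 1.42 to 34.8 CPM around a median of 5.86. Among the chemotherapy samples libraries 11, 15 and 17 exceeded the highest healthy sample, while library 16 lay below the healthy median. Log2 differences were 2.15 ± 0.80 for tumor minus healthy, 1.95 ± 0.79 for chemotherapy minus healthy and -0.20 ± 0.69 for chemotherapy minus tumor. Without tumor library 8 the first was 1.40 and the third 0.53. Without chemotherapy library 17 the second was 1.04 and the third -1.10.

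CIDEC, which fuses droplets, was the only member with a sample at 0 counts. Cidec had 0 counts in healthy library 1, where 3 counts would be 0.567 CPM, and 3.84, 4.01, 1.89 and 0.614 CPM in healthy libraries 2 to 5. Tumor libraries 6 to 10 showed 5.60, 0.286, 9.78, 1.27 and 1.73 CPM, and the chemotherapy samples ran from 1.22 through 2.50 to 26.8 CPM. The tumor median of 1.73 CPM lay below the healthy median of 1.89 CPM, although the tumor mean was higher, at 3.73 ± 3.94 against 2.07 ± 1.83 CPM (SD, n = 5 each). Chemotherapy minus healthy was 1.83 ± 0.90 on the log2 scale, and 0.81 without the 2 libraries named above. Tumor minus healthy was 0.88 ± 0.94, and 0.05 without them.

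FABP4, the fatty acid carrier, was less tied to single samples than most other members. Healthy libraries 1 to 5 had Fabp4 at 32.1, 70.6, 40.7, 37.3 and 64.6 CPM, and tumor libraries 6 to 10 at 116, 66.5, 58.3, 77.5 and 53.4 CPM. The chemotherapy samples spanned 72.2 to 154 CPM with a median of 84.9. All 6 lay above the highest healthy sample, by a margin of 72.2 against 70.6 CPM at the closest, and no other member separated these groups. Among all 11856 genes tested, 2.02% had every chemotherapy sample above every healthy sample. The fold change on the log2 scale was 0.96 ± 0.25 for chemotherapy minus healthy and 0.61 ± 0.26 for tumor minus healthy. Without tumor library 8 and chemotherapy library 17 the first value was 0.77. Tumor library 8, among the 3 highest samples for the other 9 members, had less Fabp4 than the mean of the other tumor samples, at a ratio of 0.744.

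FABP4 is also made by capillary endothelium and by macrophages, so the summed levels of their markers are given beside it. The 8 endothelial markers together came to 286 to 313 CPM in healthy, 256 to 344 in tumor and 223 to 297 in chemotherapy samples, and 9 macrophage markers to 214 to 466, 181 to 343 and 219 to 435 CPM. Neither sum was above the healthy range in the chemotherapy samples, but the endothelial sum covers genes that differed in direction. Of the 8 endothelial markers, 2 were above 0 in chemotherapy minus healthy, and the median was -0.17 on the log2 scale. The marker Emcn lay at 7.77 to 12.9 CPM in healthy and at 13.5 to 24.3 CPM in chemotherapy samples. Such higher levels without overlap were found in 2.02% of all genes tested. In this comparison edgeR's quasi-likelihood test called 1 of the 8 higher (Emcn) and 1 lower (Tie1). Of all genes, 7.3% passed as higher and 6.41% as lower. The part of endothelial cells and macrophages in the level of Fabp4 was not tested.

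The enzymes that build fatty acids, Fasn and Acly, differed little between groups, with the same sign as each other in each comparison of all samples. Fasn measured 55.7, 43.4, 80.4, 99.3 and 27.3 CPM in healthy libraries 1 to 5 and 46.2, 32.2, 125, 51.9 and 58.8 CPM in tumor libraries 6 to 10. The chemotherapy samples went from 22.4 through 43.7 to 127 CPM. Tumor library 8 and chemotherapy library 17 were the only samples above the healthy range, and chemotherapy libraries 14 and 16 were below it. The log2 difference was 0.03 ± 0.45 for tumor minus healthy and -0.22 ± 0.43 for chemotherapy minus healthy. Without these 2 libraries the values were -0.38 and -0.69, so the first turned its sign.

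Acly was the steadiest of the 10. Its levels were 40.6, 33.8, 39.9, 51.7 and 30.1 CPM in healthy libraries 1 to 5 and 31.1, 34.8, 64.2, 36.2 and 45.5 CPM in tumor libraries 6 to 10. Chemotherapy samples had 28.4 to 42.2 CPM around a median of 33.8. The means of 39.2 ± 8.25, 42.3 ± 13.3 and 34.6 ± 4.84 CPM (SD, n = 5, 5 and 6) differed by less than the spread within the tumor group. Differences were 0.11 ± 0.19 for tumor minus healthy, -0.18 ± 0.18 for chemotherapy minus healthy and -0.29 ± 0.18 for chemotherapy minus tumor on the log2 scale. Without the 2 libraries Acly stood at -0.10, -0.25 and -0.15, so the first turned its sign.

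Thrsp, the factor of lipid synthesis, was high in the samples that were high in the fat cell products. In healthy libraries 1 to 5 Thrsp was at 5.86, 6.86, 4.30, 3.71 and 2.58 CPM. Tumor libraries 6 to 10 had 14.8, 4.19, 16.5, 7.30 and 11.2 CPM, and the chemotherapy samples 3.05 to 67.3 CPM with a median of 8.77. In all, 4 of 5 tumor samples and 4 of 6 chemotherapy samples exceeded the highest healthy sample. Thrsp differed by 1.27 ± 0.67 for tumor minus healthy and 2.02 ± 0.65 for chemotherapy minus healthy, and the latter was 0.91 without the 2 libraries.

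Pck1, the enzyme of glycerol and glucose synthesis, was the member in which chemotherapy library 17 stood highest relative to the mean of the rest of its group. Pck1 stood at 0.189, 4.39, 2.29, 1.49 and 0.614 CPM in healthy libraries 1 to 5 and at 3.56, 0.0953, 8.93, 2.06 and 1.56 CPM in tumor libraries 6 to 10, where the lowest value of each group was 1 count. From 1.21 CPM at the lowest and 2.57 at the median, the chemotherapy group reached 29.3 CPM in library 17. That library held 9.43 times the mean of the other chemotherapy samples. The difference of chemotherapy minus healthy was 2.17 ± 0.91 on the log2 scale with all samples and 1.003 without the 2 libraries. For tumor minus healthy it was 0.99 ± 0.95, and 0.04 without them.

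Cdo1, the cysteine dioxygenase, was measured at 1.89, 8.24, 6.02, 2.50 and 3.19 CPM in healthy libraries 1 to 5. It had 15.1, 4.38, 15.9, 7.62 and 4.15 CPM in tumor libraries 6 to 10 and 4.54 to 44.5 CPM in chemotherapy samples, with a median of 8.86. Chemotherapy libraries 11, 14, 15 and 17 and tumor libraries 6 and 8 lay above the healthy range. Cdo1 differed by 1.17 ± 0.60 for tumor minus healthy and 1.86 ± 0.58 for chemotherapy minus healthy, and by 1.19 in the second comparison without the 2 libraries.

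Set side by side, the tumor minus healthy difference was above 0 in all 10 genes, with a median of 0.93 on the log2 scale beside 0.01 over all genes tested. No member passed an adjusted p of 0.05 in edgeR's quasi-likelihood test with Benjamini-Hochberg adjustment, nor did any of the 11856 genes (0.0%), while 2134 of all genes had an unadjusted p under 0.05. DESeq2 called 29 genes in this comparison and limma-voom 0, none of them a member. In chemotherapy minus healthy 8 members were above 0, all but Fasn and Acly, with a median of 1.85 beside -0.02 over all genes. Fabp4, Cdo1 and Thrsp passed the threshold as higher and no member as lower, where 7.3% of all genes passed as higher, 6.41% as lower and 13.7% in all. Scaling by total counts alone changed the whole-table split from 865 higher and 760 lower to 1669 and 348, and the median of all genes to 0.12 (0.13 for tumor minus healthy), but it turned the direction of no member. The 10 genes were chosen with these contrasts known, so nothing is read from their count.

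Between the 2 tumor-bearing groups the members differed less. The median of chemotherapy minus tumor was 0.44 beside 0.00 over all genes, with 7 of 10 above 0. None was called by edgeR's quasi-likelihood test (0.0% of all genes), 685 of all genes had an unadjusted p under 0.05, and the 8 genes called by DESeq2 included no member. The size and direction changed with single libraries: without chemotherapy library 17 the median was -0.28 and 3 of 10 were above 0. Without tumor library 8 instead, the median was 0.91 and 9 of 10 were above 0. All 3 comparisons share samples, so they do not count as separate evidence.

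Leaving out both tumor library 8 and chemotherapy library 17, a choice made after seeing the data, lowered the differences. The median of the 10 became 0.36 for tumor minus healthy (7 above 0), 0.86 for chemotherapy minus healthy (8 above 0) and -0.02 for chemotherapy minus tumor (5 above 0). Fabp4 remained called in chemotherapy minus healthy, where 14.8% of all genes were, and Cdo1 and Thrsp were not. Calls also changed with other samples left out, and nothing is read from which members stayed called. Without healthy library 1, 3 or 4 or chemotherapy library 13, 14 or 15 no member was called, but neither was any gene of the table (0.0%), and the median difference of the 10 stayed between 1.61 and 2.02. Fabp4 was the only member called without healthy library 5 (1236 genes higher and 1162 lower in all) or without chemotherapy library 17 (8.82% of all genes), and Adipoq was added without healthy library 2 (31.7%).

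**Figure D2:**
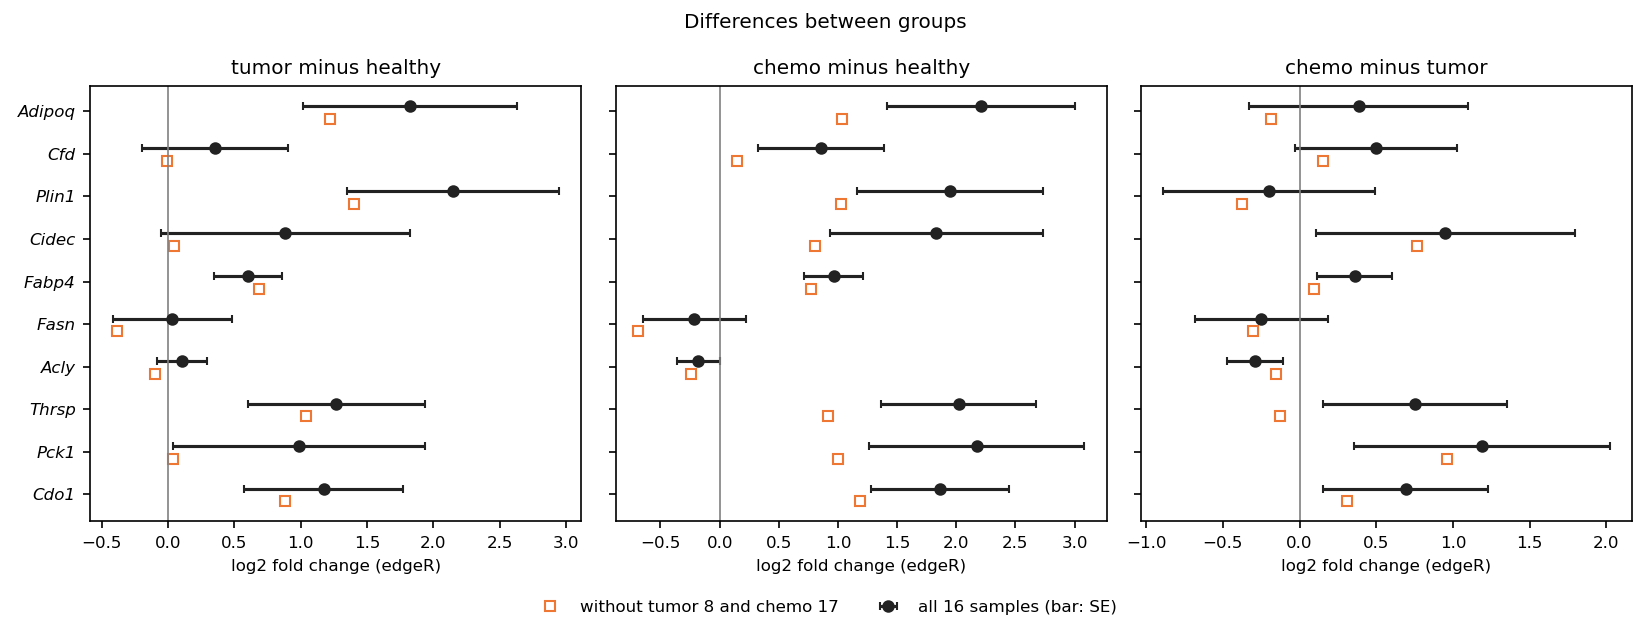
Log2 fold change of each gene (horizontal axis) for tumor minus healthy, chemotherapy minus healthy and chemotherapy minus tumor; filled circles with bars are the fit of all 16 samples with its SE, and open squares the fit without tumor library 8 and chemotherapy library 17. For chemotherapy minus healthy the open squares lie nearer to 0 than the circles for 8 genes and farther below 0 for Fasn and Acly.

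The suffix allowed a partial look within each kind of library. Chemotherapy library 11, the only one with the suffix MB in its group, lay above all 4 healthy libraries with that suffix in 8 members, all but Fasn and Acly, as it did in 12.8% of all genes tested. Among VM libraries the only healthy one was library 5, which was among the 3 lowest samples in 8 members. All 5 chemotherapy libraries with VM lay above it in 7 members and in 23.6% of all genes, and all 5 tumor libraries in 6 members and in 10.9% of all genes. A fit of VM libraries only gave medians of 1.80 for tumor minus healthy and 2.54 for chemotherapy minus healthy with no gene called, and it rests on that single healthy sample.

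A few samples carried most of the spread. Chemotherapy library 17 was the highest of all 16 samples in 9 members and tumor library 8 in Acly. Chemotherapy library 11 was among the 3 highest in 5 members and tumor library 6 in 3, while healthy library 1 was among the 3 lowest in 7. Relative to the mean of the other chemotherapy samples, library 17 was 4.87 to 9.43 times as high in Adipoq, Cfd, Plin1, Cidec, Thrsp, Pck1 and Cdo1. The same ratio was 1.84 in Fabp4, 3.31 in Fasn and 1.28 in Acly.

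Those 7 genes varied together across samples, a grouping made after seeing the values. Over the 16 samples the Pearson r of log2 CPM between pairs of the 7 had a median of 0.87 and ran from 0.75 to 0.94 over 21 pairs. With each group's mean taken away the median was 0.89, and within the healthy, tumor and chemotherapy samples it was 0.81, 0.92 and 0.93. The range was 0.08 to 0.98 in healthy, 0.71 to 0.99 in tumor and 0.85 to 0.99 in chemotherapy samples. In healthy samples Thrsp was the loosest of the 7, with r of 0.08 with Cidec and 0.24 with Cfd. Without tumor library 8 and chemotherapy library 17 the median was 0.76, from 0.51 to 0.90 over 14 samples. All of these genes are read from the same libraries with the same scaling, so the values are a description only.

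Fasn and Acly formed a second pair, with r = 0.80 over 16 samples and 0.76 over 14. Fasn correlated with the 7 genes at a median of 0.54 over 16 samples, which became 0.22 without the 2 libraries, and Acly at 0.28, which became -0.09. Fabp4 correlated with the 7 at a median of 0.56 and with Fasn and Acly at -0.15 and -0.42, and over 14 samples at -0.56 and -0.73. Within the groups these r were -0.73 and -0.79 in healthy and -0.39 and -0.72 in tumor samples, but 0.74 and 0.65 in chemotherapy samples. Chemotherapy library 17 was the highest of its group in Fabp4, Fasn and Acly, at 154, 127 and 42.2 CPM. The positive r of that group may therefore rest on this library, and r within the group without it was not computed. Fasn and the 7 genes were thus high together in the 2 libraries that stood apart and only weakly correlated over the other 14 samples.

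**Figure D3:**
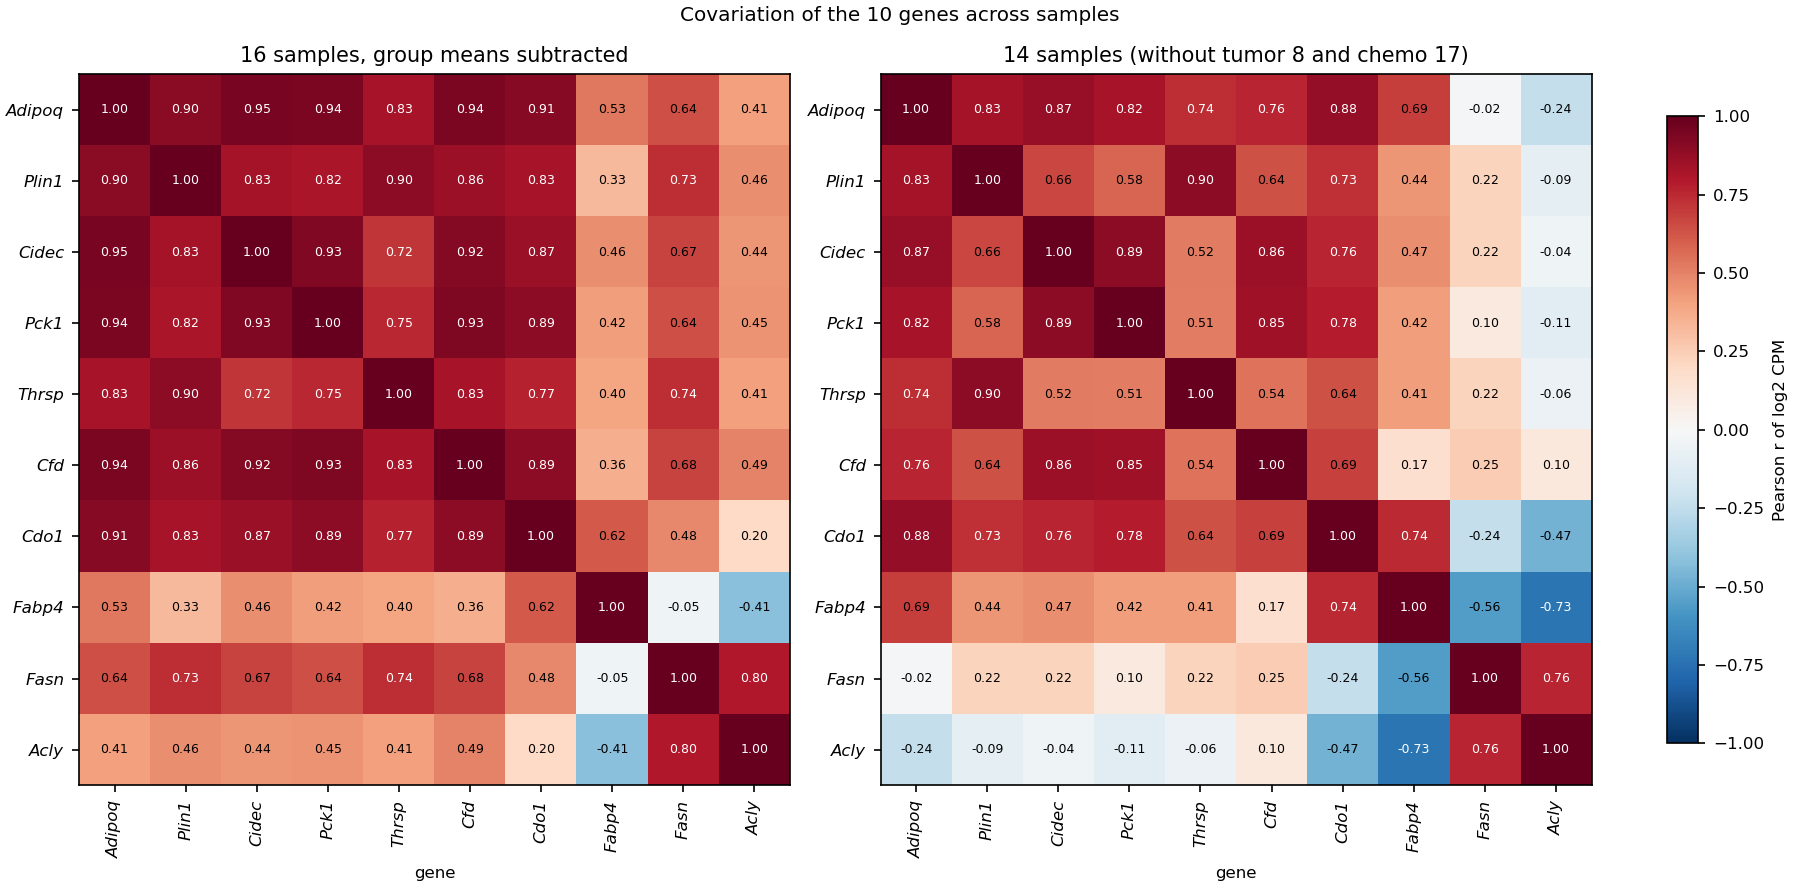
Pearson r of log2 CPM (color and printed value) between every pair of the 10 genes, on the left over 16 samples with the group means subtracted and on the right over 14 samples without tumor library 8 and chemotherapy library 17. The block of 7 genes from Adipoq to Cdo1 stays above 0.5 in both panels, whereas r between that block and Fasn or Acly falls to between -0.47 and 0.25 on the right.

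Outside the members, the genes most like Adipoq over the 16 samples, among 8891 candidates averaging 5 CPM or more, were S100b (r = 0.94), Scd (0.94), Sncg (0.87), Mgst1 (0.86) and Trarg1 (0.84). Scd, the stearoyl-CoA desaturase that makes monounsaturated fatty acids, had 0.945, 45.9, 10.4, 4.32 and 4.42 CPM in healthy libraries 1 to 5 and 149.7, 8.77, 228.8, 17.3 and 38.2 CPM in tumor libraries 6 to 10. In chemotherapy samples Scd ran from 10.6 through 40.5 to 228.5 CPM. Its r with Adipoq was 0.94 without the 2 libraries as well, whereas that of S100b dropped to 0.87, of Mgst1 and Trarg1 to 0.71 each and of Sncg to 0.70. Scd differed by 2.45 ± 1.08 for chemotherapy minus healthy and did not pass the threshold, with an adjusted p of 0.118 in edgeR's quasi-likelihood test. S100b, which fat cells as well as Schwann cells make, was at 42.2 CPM in chemotherapy library 17, at 25.2 in tumor library 8 and between 2.57 and 16.1 CPM elsewhere.

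Genes most like Fasn were Scd2 (r = 0.89), Atxn7l2 (0.84), Vasp (0.82), Rcc2 (0.81) and Thra (0.81). None of these 5 was among those most like Adipoq. Scd2, another stearoyl-CoA desaturase, ranged from 38.5 to 137.7 CPM with its highest value in tumor library 8. It differed by -0.21 ± 0.31 for chemotherapy minus healthy (adjusted p = 0.641, edgeR's quasi-likelihood test).

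**Figure D4:**
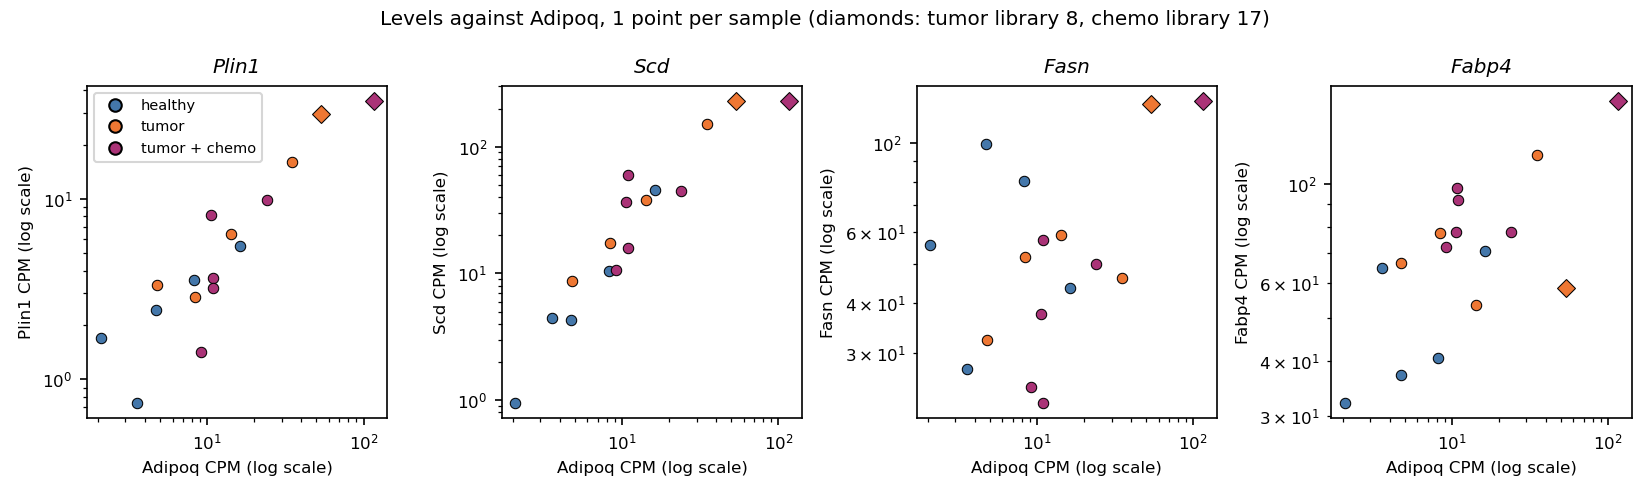
Level of Plin1, Scd, Fasn and Fabp4 (vertical axes, CPM, log scale) against Adipoq (horizontal axis, CPM, log scale), with a point for each of the 16 samples colored by group and diamonds for tumor library 8 and chemotherapy library 17. Plin1 and Scd climb with Adipoq along the whole range, Fasn has its 2 highest values in the diamonds, and tumor library 8, next to the top in Adipoq, has 58.3 CPM of Fabp4 where chemotherapy library 17 has 154 and tumor library 6 has 116.

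Other genes of fat storage and synthesis passed the threshold about as often as all genes when both directions were pooled, but mostly as lower. Of 109 such genes with an entry in the table, 89 were tested in 10 lists. In chemotherapy minus healthy 3 of them were called higher and 10 lower (14.6%, beside 13.7% of all genes), with a median of -0.18. All genes together passed slightly more often as higher (7.3%) than as lower (6.41%). Among 14 other fat cell markers, Acvr1c, an activin receptor of fat cells, rose by 2.99 ± 0.94 on the log2 scale (adjusted p = 0.0435, edgeR's quasi-likelihood test with Benjamini-Hochberg adjustment). Its levels were low: healthy samples had 0.345 ± 0.577 CPM (SD, n = 5), tumor samples 1.04 ± 1.09 (n = 5) and chemotherapy samples 1.999 ± 1.85 (n = 6). Acvr1c was not among the genes called without chemotherapy library 11 (24.4% of all genes) or 17 (8.82%), nor among those of limma-voom (20.7%). The 19 other fat cell markers in the table summed to 1254 to 1930 CPM in healthy, 1202 to 1524 in tumor and 1163 to 1758 in chemotherapy samples. Gpd1 alone made up 885 to 1491 CPM of this sum, so the less abundant markers hardly weigh in it. The sum had an r of -0.07 with Adipoq, and chemotherapy library 17 ranked 6 of 16 in it and tumor library 8 ranked 9. Taken singly, r with Adipoq was 0.87 for Sncg, 0.84 for Trarg1, 0.81 for Acvr1c, 0.76 for Pparg and 0.70 for Retn. Of the 14 markers tested, only Gpd1 (-0.20), Bscl2 (-0.24) and Plin4 (-0.36) had an r below 0. Leptin, too low to be tested, reached 28.5 CPM in chemotherapy library 17, 8.48 in tumor library 6 and 7.50 in tumor library 8, and was at most 1.47 CPM elsewhere.

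Among 10 other lipid droplet proteins none was called higher and 3 fell, where 7.3% of all genes passed as higher and 6.41% as lower. Fitm2, a protein of droplet budding, fell by 0.74 ± 0.17 on the log2 scale, from 73.9 ± 7.71 CPM in healthy to 44.4 ± 10.2 in chemotherapy samples (SD, n = 5 and 6; adjusted p = 0.0261, edgeR). Plin3 and its list partner Fitm1 fell by 0.62 and 0.58. Fitm1 is the form of that family made mainly in muscle, and Plin3 coats small droplets in many cell types. Plin1 and Cidec, the droplet proteins of fat cells, lay above 0 in the same comparison, and the difference between them and these 3 genes was not tested.

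Fatty acid synthesis and desaturation had 0 higher and 3 lower of 14 tested, and triglyceride synthesis 0 higher and 2 lower of 11. The shares of all genes were 7.3% higher and 6.41% lower. Fads2 and Fads1, the desaturases of polyunsaturated fatty acids, fell by 0.94 ± 0.27 and 0.77 ± 0.23, and Acacb, the acetyl-CoA carboxylase of muscle mitochondria, fell by 0.56 ± 0.16. Agpat3 and Dgat1, acyltransferases of glycerolipid synthesis, fell by 0.79 ± 0.16 and 0.61 ± 0.17. Among 16 regulators Insig2, which retains SREBP in the endoplasmic reticulum, rose by 0.77 ± 0.25 and Scap, its escort, fell by 0.87 ± 0.23. These 7 genes had adjusted p values between 0.0261 and 0.0461 in edgeR's quasi-likelihood test.

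In gluconeogenesis and anaplerosis, the pathway of Pck1, 1 of 6 was called higher and 1 lower (7.3% and 6.41% of all genes). Fbp2, the fructose bisphosphatase of muscle, rose by 0.77 ± 0.17 and G6pc3, a glucose-6-phosphatase, fell by 0.69 ± 0.16. No gene was called among 10 of fatty acid uptake, 7 of lipolysis, 7 of cysteine and taurine, the pathway of Cdo1, and 5 of brown and beige fat. The smallest p in those lists belonged to Slc27a4 (adjusted p = 0.0508, edgeR), Abhd5 (0.157), Slc6a6 (0.164) and Ebf2 (0.0588). For tumor minus healthy and for chemotherapy minus tumor no gene of any list was called by edgeR's test, and 15 and 2 of the 89 had an unadjusted p under 0.05. The 13 calls were lost with all others of the table (0.0% called) without healthy library 1, 3 or 4 or chemotherapy library 13, 14 or 15. They numbered 23 without healthy library 2 (31.7% of all genes), 20 without chemotherapy library 11 (24.4%), 7 without chemotherapy library 17 (8.82%) and 5 without chemotherapy library 16 (4.48%).

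Markers of other cell types were read in the same samples as the members. Keratins of skin were found in tumor library 8, with Krt5 at 34.3, Krt14 at 37.8, Krt1 at 80.0 and Krt10 at 134 CPM, where no other sample exceeded 0.692, 0, 1.21 and 2.44 CPM. The sum of 5 skin markers was 458 CPM in that library and between 0.945 and 7.12 in the others, including 6.28 in chemotherapy library 17. The 7 Schwann cell and myelin markers summed to 275 CPM in tumor library 8, 239 in chemotherapy library 11 and 202 in chemotherapy library 17, and to at most 172 CPM in any other sample. The 5 hepatocyte markers summed to no more than 2.59 CPM in any sample, including those where Pck1 and Cdo1 were high. The part of skin, nerve or other tissue in the levels of the 10 genes was not tested.

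**Figure D5:**
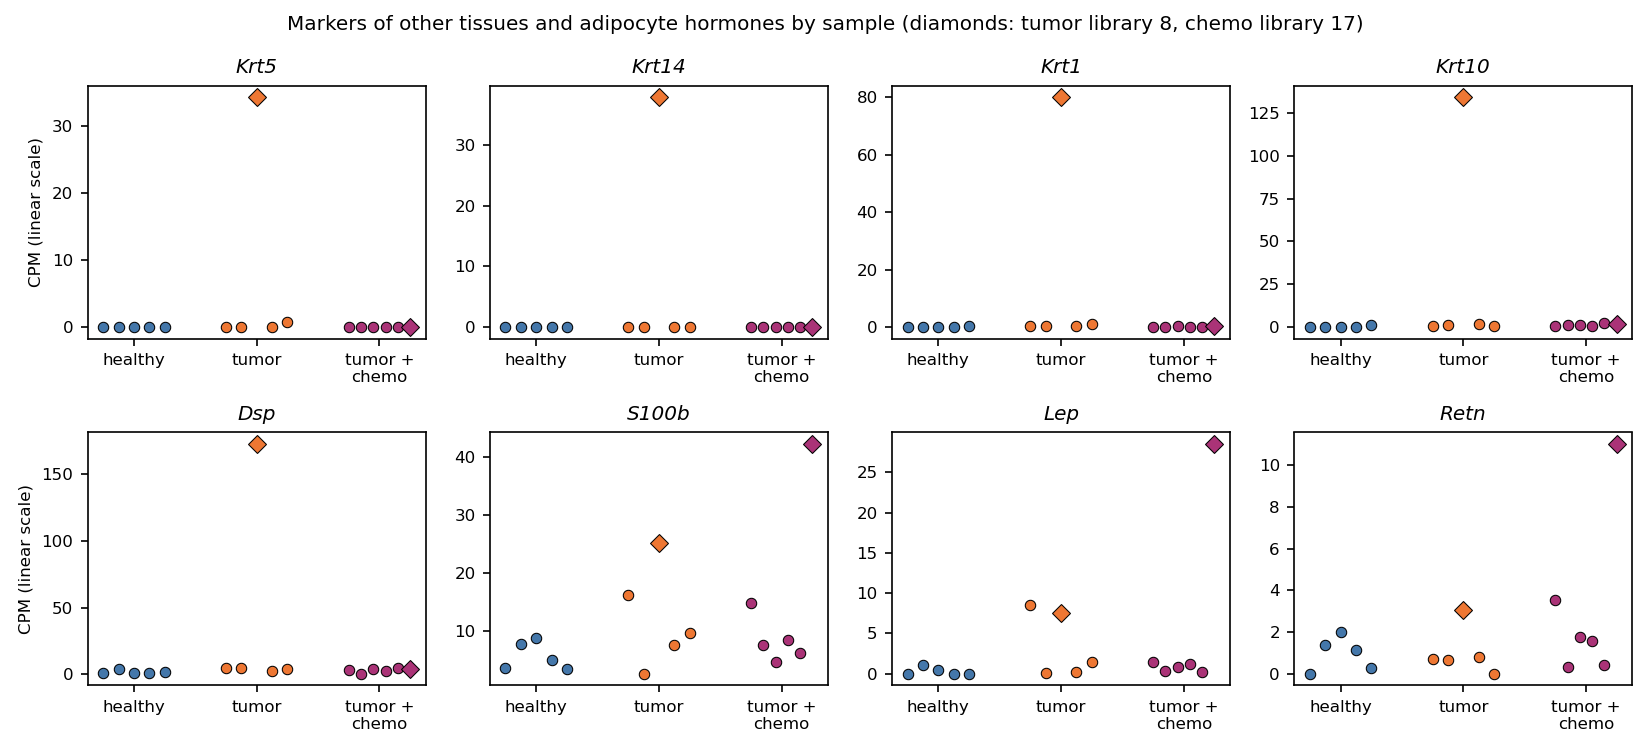
Level in CPM (vertical axis, linear) of the skin keratins Krt5, Krt14, Krt1 and Krt10, the desmosome gene Dsp of epithelia and heart, S100b and the fat cell hormones Lep and Retn in each of the 16 samples by group, with diamonds for tumor library 8 and chemotherapy library 17. The keratins are high in tumor library 8 only, and Lep and Retn are highest in chemotherapy library 17, at 28.5 and 11.03 CPM.

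Of the remaining marker lists, skeletal muscle fiber genes had 3 of 6 called lower in chemotherapy minus healthy (Ckm, Acta1 and Des) and fibroblast genes 4 of 9 (Pdgfra, Col3a1, Smoc2 and Cd34) by edgeR's quasi-likelihood test. Endothelial genes had 1 higher (Emcn) and 1 lower (Tie1) of 8, and no macrophage, Schwann cell, tendon, skin or red blood cell marker was called. Of the skin markers only Dsp was tested, since the keratins failed the filter on low counts, as did the Schwann cell markers Sox10 and Mag. Over all genes 7.3% passed as higher and 6.41% as lower. No gene of the table was called with a suffix term, nor without healthy library 1, 3 or 4 or chemotherapy library 13, 14 or 15. Fibroblast markers summed to 4797 to 14510 CPM in healthy, 2957 to 13217 in tumor and 2385 to 10989 in chemotherapy samples, and red blood cell markers to 440 to 1379, 227 to 588 and 124 to 917 CPM. Tendon markers summed to 330 to 810, 525 to 1443 and 295 to 1053 CPM. The share of these cells in the differences of the 10 genes was not tested.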

How the data were processed

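Per the labels, stranded total RNA libraries depleted of ribosomal RNA were made from gastrocnemius RNA. The authors deposited a table of raw counts per gene for 17 libraries. Tools listed, per the submitters' processing notes, were TopHat2 2.0.10 with Bowtie2, CASAVA 1.9, FastQC 0.11.4 and Trim Galore 0.4.1. Not given in the sources used here are the counter, build and annotation. Entries without a name (388 of 32883, 0.206% of counts) were left out. Libraries 11 and 12 had a chi-square per degree of freedom of 2.04, against 5.47 for the next closest pair, and were summed, which left 16 samples; they were counted as 1 sample.

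A single model with 3 group means was fitted to all samples in edgeR 4.0.16 (R 4.3.3) with TMM scaling, filterByExpr (minimum count 10) and robust quasi-likelihood, with 13 residual degrees of freedom. P values were adjusted over 11856 genes by Benjamini and Hochberg's method, with calls made below 0.05. The SE was computed as |log2 fold change| divided by the root of F. The script was tested on simulated counts. The labels do not say that samples came from separate animals, so p-values measure the spread between these samples.

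The members and lists were chosen with earlier results of these data known. The rule for names took the 10 members, the 5 genes most correlated with Adipoq and with Fasn, and from each list up to 3 called genes or else the 1 with the smallest p. Lists with an unmatched name were read without it. Alternatives were DESeq2 1.42.0, limma-voom (limma 3.58.1), 1 surrogate variable (sva 3.50.0), other scalings and filters, a suffix term, 17 libraries and samples left out. A further marker gene is not reported here.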

Additional observations from a re-analysis of the deposited data

Results flagged for a closer look

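Chemotherapy library 17 lay farther from the other 5 chemotherapy samples than Dixon's 95% limit allows in 9 of the 10 genes, all but Acly. Its levels were 116 CPM for Adipoq, 181 for Cfd, 34.8 for Plin1, 26.8 for Cidec, 154 for Fabp4, 127 for Fasn, 67.3 for Thrsp, 29.3 for Pck1 and 44.5 for Cdo1, where the next highest chemotherapy samples had 24.0, 71.4, 9.87, 8.60, 98.0, 57.2, 15.1, 7.42 and 17.5 CPM. Tumor library 8 was flagged in the same way for Fasn, at 125 CPM against 58.8 in the next tumor sample. These are 10 of 30 groups checked, and the 9 flags of library 17 come from a single sample. The limit's chance rate of about 1 in 20 holds for independent values of normal spread. It is no baseline here, since the genes vary together, were chosen with these data known and were checked on a linear scale. Library 17 had 4944773 counts, within the range of the others, and its skin marker sum was 6.28 CPM.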

How the results depend on the processing

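The 29 alternatives left the median tumor minus healthy and chemotherapy minus healthy difference of the 10 genes above 0 in all 29, and the chemotherapy minus tumor median in 27. Of 864 values of single genes 846 moved by less than 1 SD and 18 by more, the SD being that of log2 CPM between samples within groups. This SD was wide, from 0.31 for Acly to 1.66 for Cidec, so a large shift can count as unmoved. Adipoq in chemotherapy minus healthy did so at 1.03 without tumor library 8 and chemotherapy library 17, beside 2.21 with all samples. For chemotherapy minus healthy, 3 members were called; 1 was called without the low-count filter, 1 without tumor library 8 and chemotherapy library 17, and 0 with a suffix term, with 1 surrogate variable, without healthy libraries 1, 3 and 4, and in VM libraries only, 4 settings in which no gene of the table was called and the median difference of the members was 2.11, 2.40, 1.65 and 2.54 beside 1.85. Leaving out each sample in turn gave 0 to 4. Of the related genes 13 were called, 0 under those 4 settings, and 0 to 23 with each sample left out; for tumor minus healthy 0 were called, and 0 to 4 with each sample left out. The whole table, with 865 genes higher and 760 lower for chemotherapy minus healthy, had 474 and 410 without the filter, 1454 and 1123 by the DESeq2 Wald test, 1574 and 885 by limma-voom, and no call in 10 of the 29. The median r of the 7 genes was 0.87, and 0.76 without tumor library 8 and chemotherapy library 17. The settings VM libraries only and without these 2 libraries were added after seeing the data; the causes were not tested. Cidec and Pck1 were not tested under a mean of at least 5 CPM. Depth limits Cidec and Pck1 most, with 0 or 1 count in some samples; the interval of such counts covers counting error only. No paired analysis was possible because the library numbers are unique and the groups share no replicate number.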
